A study of Mus musculus with 6 samples.

Results

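Antisense RNAs, long non-coding transcripts read from the strand opposite a known gene, were followed in mouse hearts with and without *Trdn-as*. The genes were selected by their annotation and by a measured value. A row of the deposited table was taken when its biotype was antisense RNA and its normalised read count averaged at least 10 over the 6 hearts, and 158 of the 875 antisense RNA rows met this, among 21776 genes in all. The mean over all hearts therefore chose the members, and the difference between KO and WT hearts was not itself a criterion. A high value in either group alone could still admit a member. Each member was then paired with the protein-coding genes that overlapped it by at least 1 base on the opposite strand, and *Trdn-as*, the RNA removed in this model, was set among the resulting pairs.

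The table came from strand-specific total RNA sequencing of 3 KO and 3 WT hearts, 1 library each. In the KO mice a polyadenylation signal had been placed in the first exon of *Trdn-as* in embryonic stem cells. Homozygous KO mice were derived after crossing the chimeras back to C57BL/6. Every tissue thus carries the allele, although the series describes a deficiency of *Trdn-as* in cardiomyocytes. The labels name only the tissue and the genotype, trdn-as KO or WT, with no age, sex or treatment, and the study counts the libraries as separate hearts. The libraries held an estimated 3.15 to 3.62 M counted reads in KO and 2.59 to 3.46 M in WT hearts, and 3 reads correspond to a normalised read count of 2.61 to 3.77. The values are read counts divided by a library size factor and are not scaled to gene length. Where a gene is said below to be read a number of times, that number is such a value and not a raw count. Cardiomyocyte markers dominated every heart, with summed counts of *Myh6*, *Tnnt2*, *Ttn*, *Actn2*, *Ryr2* and *Myl2* of 91784 to 95958 in KO and 95329 to 116825 in WT hearts, against 4 to 11 for the 3 skeletal muscle markers listed. The Y-linked *Ddx3y* was read 673 to 735 times and *Xist* 1 to 4 times in the 6 hearts. By these genes all 6 hearts were male, which the labels do not state.

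An antisense RNA can lie inside an intron of its coding partner, share exons with it, or start beside it and run the other way from a common promoter region. Some act on the partner gene in *cis*, by being transcribed through its promoter or body, and *Airn* and *Kcnq1ot1* are the textbook cases at imprinted loci. Others are transcribed without any known role. In the heart, antisense RNAs are known at genes of the contractile apparatus, and *Mhrt*, read from the *Myh7* locus, is the best studied. *Trdn-as* lies opposite *Trdn*, the gene of triadin, which anchors calsequestrin to the ryanodine receptor in the calcium release complex.

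The sequence that defines the KO is the first exon of *Trdn-as*, since the polyadenylation signal was placed in it. *Trdn-as* is listed under the clone name AC157017.2 (ENSMUSG00000112707) at chr10:33222345-33256418 (GRCm38, minus strand), inside *Trdn*, which is read from the plus strand. GENCODE M21 gives its longer first exon as chr10:33256190-33256418, 229 bases, and no exon of *Trdn-as* overlaps an exon of *Trdn*. It reads 5′ to 3′, with the sites of the study's RT-qPCR oligonucleotides in capitals, at bases 65 to 89 and 185 to 209 of the exon:
Trdn-as first exon: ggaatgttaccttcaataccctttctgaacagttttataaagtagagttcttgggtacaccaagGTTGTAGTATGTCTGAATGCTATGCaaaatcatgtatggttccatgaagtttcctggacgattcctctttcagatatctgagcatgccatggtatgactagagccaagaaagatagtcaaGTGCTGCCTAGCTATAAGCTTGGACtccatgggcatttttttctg
Both oligonucleotide sites lie in the exon that holds the insertion.

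Most antisense RNAs of the heart were scarce. Of the 158 members, 67 had a mean normalised read count from 10 to 20, 59 from 20 to 50, 16 from 50 to 100 and 16 above 100. The median of the means was 23.2, against 105 over the 13753 genes tested. Just inside the limit were *Gm42067* and *Gm14097* at 10.5 and *Gm37459* at 10.7, and just outside it *Gm45552*, *Gm15283* and *Gm15816* at 9.67 each, so that the edge separates RNAs of nearly the same level. Together the members took 0.267 to 0.283% of all normalised reads in KO and 0.289 to 0.315% in WT hearts. Without *Trdn-as* the share was 0.267 to 0.283% in KO and 0.267 to 0.293% in WT hearts, and the groups overlapped. The members lay on 19 chromosomes, with 8 on chromosome 10 and 2 on X. Their annotated exons covered 361 to 93092 bases, with a median of 2584, and 31 had a single exon block.

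The 10 most abundant members included *Kcnq1ot1*, C130080G10Rik, *Atcayos*, *Mhrt*, *Trdn-as*, D830024N08Rik, *Airn*, 6330403L08Rik and Gm12002. *Kcnq1ot1*, the imprinted RNA that silences genes around *Kcnq1* on the paternal chromosome, led with normalised read counts of 1576, 1723 and 1811 in KO and 1499, 1827 and 1903 in WT hearts. By the mean of the WT hearts alone *Trdn-as* was second, with 690, 773 and 688. Per exonic kilobase, with the exons of all annotated transcripts of a gene joined, the order differed, since *Kcnq1ot1* is an unspliced RNA with 93092 annotated bases. On that scale *Mhrt* stood at 347 in WT hearts, Gm15543 at 335, *Trdn-as* at 281, C130080G10Rik at 196 and *Kcnq1ot1* at 18.7.

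A coding partner was found for 133 of the 158 members. A single partner overlapped 115 of them, 15 had 2 and 3 had 3, which gave 154 pairs. Where there were several, the partner with the most overlapping bases was used. The ends of the 2 genes divided these 133 pairs into 50 head to head, in which the starts lie in the overlap, 43 with the antisense RNA inside the partner, 37 tail to tail, in which the 3′ ends lie in the overlap, and 3 with the partner inside the antisense RNA. *Trdn-as* and *Trdn* belong to the second class. Annotated exons of both genes overlapped in 103 pairs (77.4%), and *Trdn-as* was among the 30 pairs without such overlap. Reads counted for *Trdn-as* and for *Trdn* thus come from different stretches of the genome, whereas in pairs with overlapping exons the strand alone separates reads of the shared stretch. Head-to-head pairs overlapped by a median of 835 bases and had starts a median of 834 bases apart.

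Levels of an antisense RNA and of its partner were set side by side per exonic kilobase in WT hearts. That length joins the exons of all annotated transcripts, so the level of a gene read mainly from a shorter isoform is understated. *Trdn* is such a gene, as the study found fewer reads from its skeletal muscle exons in WT hearts. The ratio of *Trdn-as* to *Trdn* given below may therefore be too high. The median member stood at 11.5 and the median tested partner at 37.3. Among the 131 pairs with both genes above 0, the ratio of antisense to partner had a median of 0.486 and quartiles of 0.182 and 2.40, and it exceeded 1 in 50 pairs. The ratio had a median of 0.267 in head-to-head pairs, 0.701 in pairs with the antisense RNA inside the partner and 1.00 in tail-to-tail pairs. Across the pairs the levels were weakly related (Spearman's rho 0.15, n = 131 pairs measured in the same 3 libraries, given as a description). *Trdn-as* had a ratio of 1.72 and ranked 39 of 131. Among the 29 pairs whose member had a mean of at least 50 it ranked 12, between Gt(ROSA)26Sor with *Thumpd3* at 1.84 and *Brip1os* with *Ints2* at 1.70, and such close ratios were not told apart by a test. By reads without exonic length *Trdn-as* ranked 50 of 131. The *Trdn-as* locus was thus above the middle of the range in WT hearts by each of these ranks, and not at its end.

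**Figure D1:**
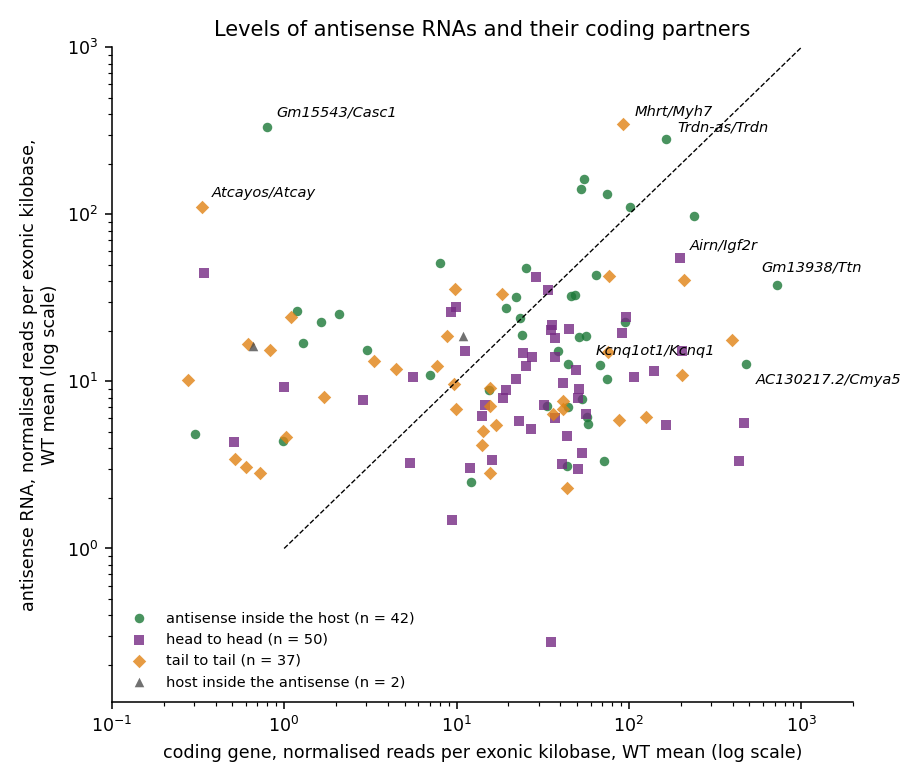
Level of each antisense RNA (vertical) against its coding partner (horizontal), both as normalised reads per exonic kilobase averaged over the 3 WT hearts on log scales, for the 131 pairs with both above 0, coloured by arrangement, with a dashed line at equal levels. *Trdn-as* (281 against 164) and *Mhrt* (347 against 92.1) lie above the line, and Gm13938 opposite *Ttn* (37.9 against 726) far below it.

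The 5 highest ratios among members with a mean of at least 50 came from loci where the partner is little used in the heart, with 2 exceptions. Gm15543, inside *Casc1*, was read 108 to 121 times in KO and 116 to 125 times in WT hearts, against 4 to 13 reads of *Casc1* in all hearts. *Atcayos* was read 404 to 543 times in KO and 480 to 497 times in WT hearts, and *Atcay*, which codes for the neuronal protein caytaxin, 0 to 3 times. *Atcayos* also spans *Nmrk2*, a muscle nicotinamide riboside kinase, which was read 6 to 17 times. *Plet1os* was read 44 to 61 times and *Plet1* 0 to 3 times. Gm12002 in *Cobl*, an actin nucleator, had a ratio of 6.45, and *Mhrt* against *Myh7* one of 3.76.

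Loss of *Trdn-as* was the one change among the antisense RNAs that passed the test. WT hearts held 690, 773 and 688 normalised reads of it (717 ± 48.5, SD, n = 3) and KO hearts 1, 0 and 1. As all 3 KO values lay under the level of 3 reads, the loss was at least 240-fold. On the scale of log2(value + 1) limma fitted a log2 fold change of -8.82 (SE 0.24), at an adjusted p of 3.91e-15 (Benjamini-Hochberg over all genes tested, two-sided). *Trdn* was read 2489, 2381 and 2551 times in KO and 1541, 1541 and 1516 times in WT hearts and rose by 0.69 on the log2 scale (SE 0.05, adjusted p 2.35e-07, limma; adjusted p 0.145 without a mean-variance trend). These values count all sense transcripts of *Trdn* together. The study reports loss of the cardiac and gain of the skeletal muscle isoform in KO hearts. It also reports a sense transcript without a reading frame in WT hearts. Values per gene cannot separate these. For each 100 reads of *Trdn*, *Trdn-as* gave 44.8, 50.2 and 45.4 reads in WT hearts and 0.0402, 0 and 0.0392 in KO hearts. This share is formed within a library and does not depend on the size factors.

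The other 157 members showed no change that passed the test. With *Trdn-as*, 1 of 158 members was called, where 4 of 13753 genes (0.0291%) were called in all. The lowest adjusted p among the other members was 0.555 (limma). Their log2 fold changes ran from -0.97 to 0.63, and 146 of the 157 lay within 0.5 of 0. At an unadjusted p under 0.05 there were 10 members (6.33%), *Trdn-as* included, against 5.74% of all genes tested, so that the share of members in this fit was close to the background. Of these, 9 were lower in KO hearts (2.80% of all genes tested) and 1 higher (2.94%). Fitted without a mean-variance trend, 19 of 158 members had such a p, against 5.67% of all genes, which is above the background. There were 16 (10.1%, against 8.26% of all genes) when KO replicate 1 was left out and 6 (3.80%, against 4.64%) when KO replicate 2 was. The KO values lay wholly apart from the WT values in 20 members (12.7%), against 9.07% of all genes, with 15 lower in KO (4.44% of all genes) and 5 higher (4.64%). The median log2 fold change of the members was -0.03 against 0.00 for all genes tested, with 87 members lower and 71 higher in KO hearts. A mean of at least 10 was reached in WT hearts alone by 8 members and in KO hearts alone by 4.

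**Figure D2:**
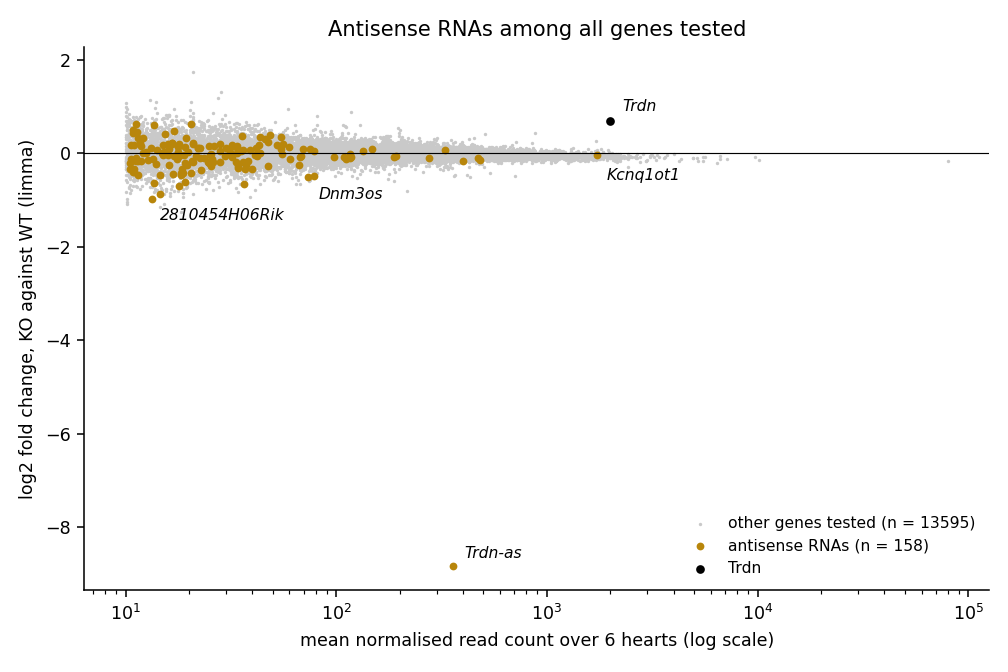
Log2 fold change in KO against WT hearts (vertical, limma) against the mean normalised read count over 6 hearts (horizontal, log scale) for 13753 genes, with the 158 antisense RNAs in ochre. *Trdn-as* lies at -8.82 and the other antisense RNAs between -0.97 and 0.63.

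Depth set how small a change could be seen. The median standard error of the log2 fold change was 0.31 for the 67 members with a mean from 10 to 20, 0.22 for the 59 from 20 to 50, 0.15 for the 16 from 50 to 100 and 0.10 for the 15 others above 100. The 95% interval of the fold change lay within 2-fold in either direction for 130 of the 157 members. That held for 43 of the 67 scarcest members, for 56 of the 59 with a mean from 20 to 50, and for all members above 50 other than *Trdn-as*. For the rest the interval reached past 2-fold, so that a 2-fold difference was not excluded.

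Apart from *Trdn-as*, the log2 fold changes of members with an unadjusted p under 0.05 and no overlap between the groups ran from -0.97 to 0.35. 2810454H06Rik was read 9, 9 and 8 times in KO and 19, 19 and 16 times in WT hearts (log2 fold change -0.97, SE 0.30, unadjusted p 0.00373, adjusted p 0.744, limma). Gm17435, tail to tail with the Mediator subunit gene *Med26*, was read 38, 23 and 25 times in KO and 43, 43 and 48 times in WT hearts (-0.65, SE 0.21). *Med26* itself stood at 54, 47 and 32 in KO and 47, 46 and 47 in WT hearts. Gm11816, inside *Clvs1*, was read 18, 10 and 13 times in KO and 20, 25 and 22 times in WT hearts (-0.70, SE 0.28), while *Clvs1*, which codes for a lipid-binding protein of endosomes, was read 16, 16 and 20 times in KO and 18, 9 and 10 times in WT hearts. By the rule that named them, the highest KO value was below the lowest WT value in these 3 antisense RNAs. The values of *Med26* and of *Clvs1*, which that rule did not choose, overlapped between the groups, and the contrast is no test. The single member higher in KO hearts by this rule was C330011M18Rik, head to head with the transcription factor gene *Rfx1*, with 62, 61 and 61 reads in KO and 54, 45 and 45 in WT hearts (0.35, SE 0.16). *Rfx1* stood at 53, 47 and 76 in KO and 55, 51 and 72 in WT hearts.

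Beyond those with the largest differences, 2 further members with an unadjusted p under 0.05 and no overlap are described, and these were picked after their values were seen. *Dnm3os*, the precursor of miR-199a and miR-214, was read 55, 61 and 66 times in KO and 92, 87 and 82 times in WT hearts (log2 fold change -0.52, SE 0.14, unadjusted p 0.00123, adjusted p 0.555, limma). *Dnm3*, the dynamin gene that contains it, was read 158, 210 and 179 times in KO and 172, 175 and 168 times in WT hearts. 4930481A15Rik, at the end of *Drap1*, was read 81, 48 and 70 times in KO and 88, 93 and 92 times in WT hearts.

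**Figure D3:**
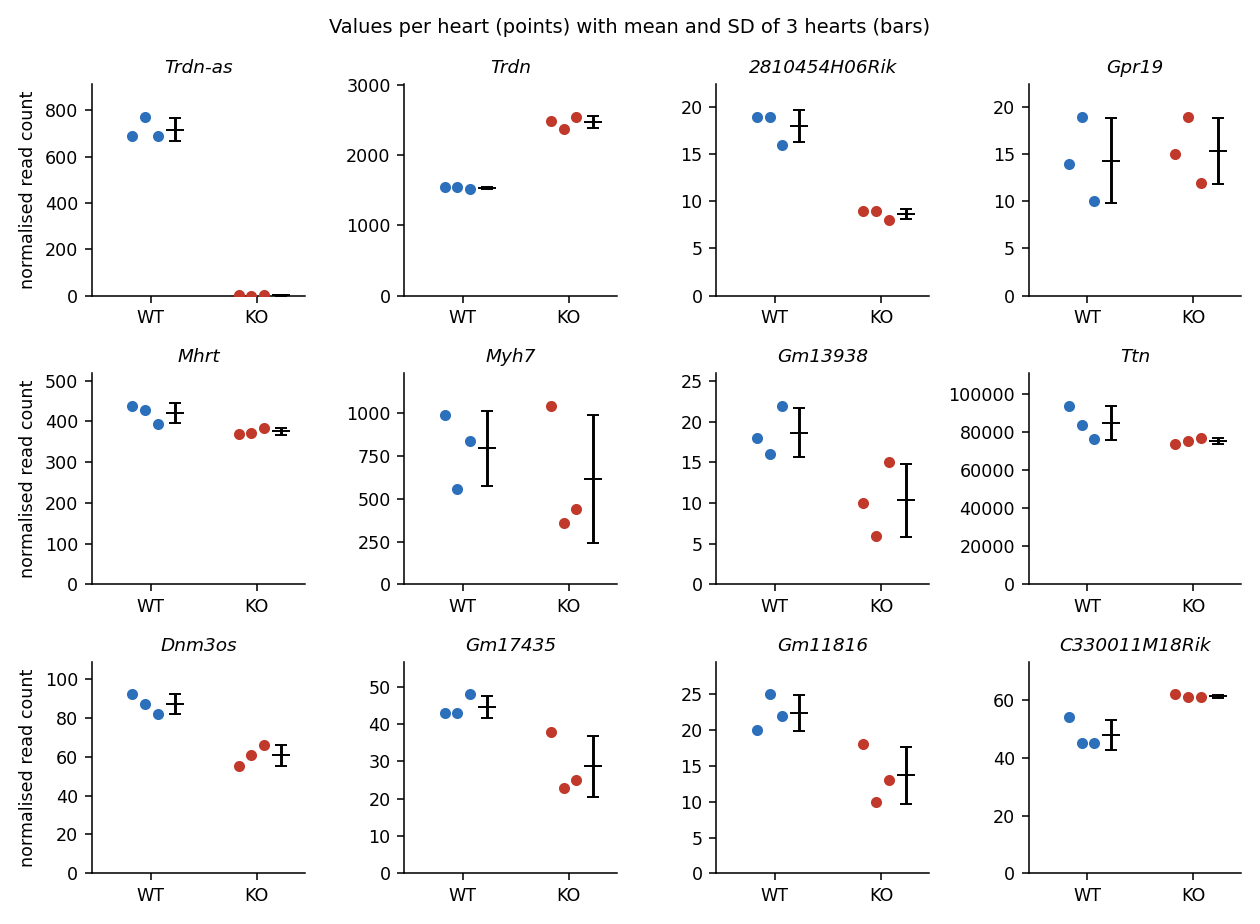
Normalised read counts per heart (points) with mean and SD of 3 hearts (bars) in WT and KO for antisense RNAs and some of their coding neighbours, each panel on its own axis from 0. *Trdn-as* falls from 690 to 773 reads to 0 or 1, and *Trdn* stands at 2381 to 2551 in KO against 1516 to 1541 in WT hearts.

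The miRNA entries of RefSeq used here are not complete, and *Mir133a-1hg*, a member named as a miRNA host, had no match among them. Matches on the same strand lay inside 2 members, *Dnm3os* and F630028O10Rik. Their mature miRNAs are shown because they are what these antisense RNAs are known to yield, with the seed (bases 2 to 8) in capitals (RefSeq, GRCm38.p6):
mmu-miR-199a-5p: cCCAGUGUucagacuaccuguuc
mmu-miR-199a-3p: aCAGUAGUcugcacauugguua
mmu-miR-214-5p: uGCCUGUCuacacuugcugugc
mmu-miR-214-3p: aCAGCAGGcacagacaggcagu
mmu-miR-223-5p: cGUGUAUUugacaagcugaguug
mmu-miR-223-3p: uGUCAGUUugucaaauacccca
miR-199a-5p, miR-199a-3p, miR-214-5p, miR-214-3p and the miR-223 arms each have a seed of their own. The libraries measured the host RNAs and not the mature miRNAs. F630028O10Rik on the X chromosome, the host of the myeloid miR-223, was read 58, 52 and 57 times in KO and 44, 48 and 55 times in WT hearts (log2 fold change 0.18, SE 0.16). The summed count of the leukocyte markers *Ptprc*, *Csf1r*, *Cd68* and *Adgre1* was 445 to 691 in KO and 542 to 596 in WT hearts, and its part in the F630028O10Rik values was not tested. In whole hearts fewer cells of a type and less RNA per cell cannot be told apart.

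8 of 78 genes on a list of cardiac contractile, calcium-handling, channel and transcription factor genes had a member on the opposite strand, and 7 of these are described here, namely *Trdn*, *Myh7*, *Ttn*, *Des*, *Cmya5*, *Kcnq1* and *Kcnd3*. Of the list, 1 of 78 tested genes, *Trdn*, was called, against 0.0291% of all genes. At an unadjusted p under 0.05 there was 1 higher (*Trdn*, background 2.94%) and 22 lower (background 2.80%) in KO hearts, with a median log2 fold change of -0.11 against 0.00 for all genes tested. The list was drawn up with earlier results of these data known and is not independent evidence of a direction. Without WT replicate 1 there were 8 lower, where 2.09% of all genes were lower at such a p, and the median was -0.05. Likewise 5 of 6 cardiomyocyte markers had an unadjusted p under 0.05 with all libraries (5.74% of all genes) and 1 of 6 without WT replicate 1 (4.33% of all genes).

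At the sarcomere, *Mhrt* lies tail to tail with *Myh7*, the gene of the slow beta myosin heavy chain, and shares 484 exonic bases with it. It was read 370, 371 and 385 times in KO and 439, 429 and 394 times in WT hearts (log2 fold change -0.16, SE 0.07, unadjusted p 0.0300, adjusted p 0.851, limma). *Myh7* varied far more, with 1043, 359 and 439 reads in KO and 990, 556 and 834 in WT hearts (-0.49, SE 0.25). For each 100 reads of *Myh7* there were 35.5, 103 and 87.7 of *Mhrt* in KO and 44.3, 77.2 and 47.2 in WT hearts. *Mhrt* thus ran from 370 to 439 over hearts in which *Myh7* ran from 359 to 1043, and both groups held hearts of high and of low *Myh7*. Without KO replicate 1, in which *Myh7* was highest, the *Myh7* value passed the test (-0.96, adjusted p 0.00410, limma), in a run that called 32 genes in all. It was -0.19 when KO replicate 2 was left out and -0.31 when WT replicate 1 was, and neither passed.

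Gm13938 lies inside *Ttn*, the gene of the giant sarcomeric spring titin, and 453 of its 493 exonic bases overlap *Ttn* exons. It was read 10, 6 and 15 times in KO and 18, 16 and 22 times in WT hearts (-0.86, SE 0.33, unadjusted p 0.0164, adjusted p 0.807, limma). Its log2 fold change was -0.56 without KO replicate 2 and -1.15 without KO replicate 3. *Ttn* was read 73738, 75179 and 76849 times in KO and 94044, 84042 and 76522 times in WT hearts (-0.17, SE 0.07), and for 100 reads of *Ttn* there were 0.00798 to 0.0195 of Gm13938 in KO and 0.0190 to 0.0287 in WT hearts. In WT hearts this was the lowest antisense share of the 7 cardiac pairs. With so deep a partner, how many of these reads were *Ttn* reads given the wrong strand was not tested.

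AC130217.2, of which 2451 of 2990 exonic bases overlap exons of *Cmya5*, the gene of the Z-disc protein myospryn, gave 0.457 to 0.747 reads per 100 in KO and 0.570 to 0.836 in WT hearts. Gm15179, tail to tail with *Des*, the gene of the intermediate filament desmin, gave 1.04 to 1.6 in KO and 0.859 to 1.31 in WT hearts. Neither share separated KO from WT hearts.

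Potassium channel genes completed the group. *Kcnd3os* starts head to head with *Kcnd3*, which codes for a channel of the transient outward current, and was read 15, 19 and 14 times in KO and 14, 12 and 16 times in WT hearts. *Kcnd3* was read 193, 187 and 182 times in KO and 190, 221 and 228 times in WT hearts, so that 7.77, 10.2 and 7.69 antisense reads stood against 100 *Kcnd3* reads in KO and 7.37, 5.43 and 7.02 in WT hearts. The KO shares all lay above the WT shares, and this difference was not tested. *Kcnq1ot1* gave 592 to 862 reads per 100 reads of *Kcnq1*, the gene of the slow delayed rectifier channel, with KO and WT hearts overlapping. *Trdn-as* was the only one of the 7 pairs whose share differed between the groups by more than 10-fold.

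**Figure D4:**
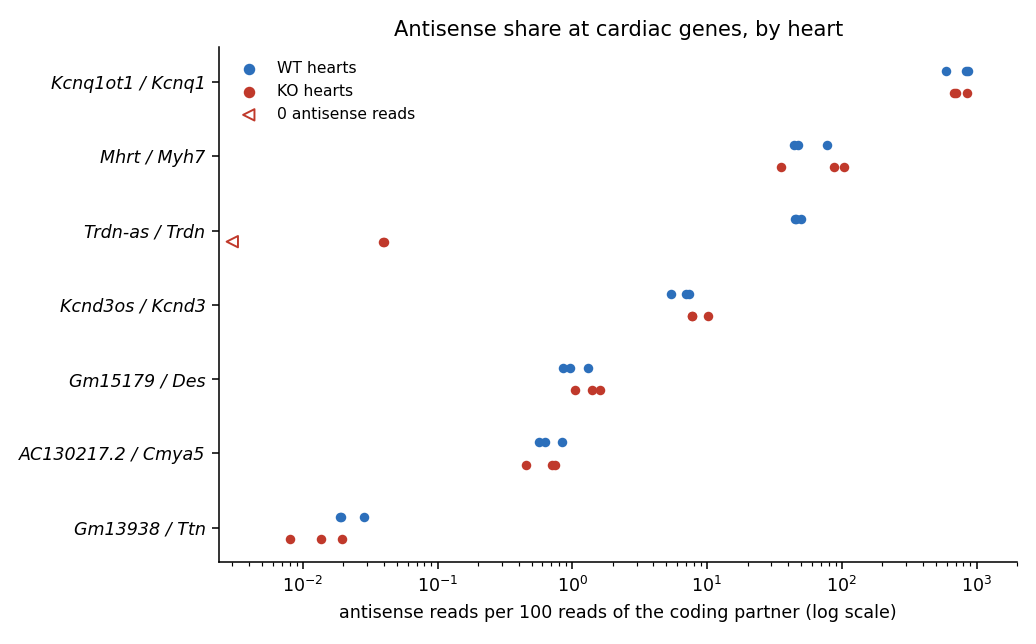
Antisense reads per 100 reads of the coding partner (horizontal, log scale) in each WT and KO heart for 7 pairs at cardiac genes, with an open triangle at the left edge for 0 antisense reads. The *Trdn-as* points drop from 44.8 to 50.2 in WT to at most 0.0402 in KO hearts, and in the other pairs the KO and WT points lie close together or overlap.

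A list of 52 names of studied non-coding RNAs matched 9 antisense RNA rows, and 7 of these were members. At the imprinted *Igf2r* locus, *Airn* was read 192, 179 and 196 times in KO and 214, 170 and 208 times in WT hearts (-0.06, SE 0.10), and *Igf2r*, which *Airn* silences on the paternal chromosome, 1846, 1913 and 1826 times in KO and 1882, 1828 and 1788 times in WT hearts. *Kcnq1ot1* had a log2 fold change of -0.03 (SE 0.07). *Hoxb3os* was read 12, 17 and 13 times in KO and 24, 21 and 14 times in WT hearts (-0.44, SE 0.29). *Tbx3os1*, which lies near the conduction system gene *Tbx3*, was read 16 to 28 times (-0.18, SE 0.27), and *Zeb2os* 7 to 15 times (-0.12, SE 0.35). *Tsix*, the antisense partner of *Xist*, was read 16 to 38 times (-0.27, SE 0.30), beside the 1 to 4 reads of *Xist*. The *Tsix* value was -0.66 without KO replicate 1 and -0.06 without KO replicate 3. *Mhrt* is described above. None of the 7 passed the test. *Nespas* (mean 2.83) and *Igf2os* (0.667) were under the limit.

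25 members overlapped no coding gene on the opposite strand, and 13 of them started within 1000 bases of the start of a coding gene on that strand, 8 of them within 200 bases. These are divergent arrangements, in which 2 genes start close together and run apart. C130080G10Rik, the second most abundant member, lies farther off than these 13 and starts 1448 bases from *Actc1*, the gene of cardiac alpha-actin. It was read 481, 436 and 465 times in KO and 547, 512 and 460 times in WT hearts (-0.13, SE 0.07), and *Actc1* 1184, 1223 and 1278 times in KO and 1594, 1363 and 1186 times in WT hearts (-0.16, SE 0.08). Both were highest in WT replicate 1, the library in which cardiomyocyte markers summed highest. The divergent neighbours within 1000 bases included *Tmem147os* and *Tmem147* with starts 39 bases apart, *Mettl5os* and *Mettl5* 113 bases, and 2810001G20Rik and *Cox10*, a gene of cytochrome oxidase assembly, 116 bases apart.

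The closest of these, and the one with the largest fitted difference after *Trdn-as*, was 2810454H06Rik, whose start lies 36 bases from that of *Gpr19*, an orphan receptor gene. The RefSeq window around its start, chr6:134897711-134898010 on the plus strand (GRCm38.p6), is shown because it holds the starts of both genes, with the bases from the *Gpr19* start at 134897925 to the 2810454H06Rik start at 134897961 in capitals:
2810454H06Rik promoter: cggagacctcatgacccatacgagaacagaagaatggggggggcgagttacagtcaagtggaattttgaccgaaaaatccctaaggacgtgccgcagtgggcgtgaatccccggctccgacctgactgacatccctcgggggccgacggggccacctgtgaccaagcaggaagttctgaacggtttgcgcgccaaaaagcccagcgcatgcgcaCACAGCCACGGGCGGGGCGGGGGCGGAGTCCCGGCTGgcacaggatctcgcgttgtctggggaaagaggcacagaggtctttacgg
*Gpr19* was read 15, 19 and 12 times in KO and 14, 19 and 10 times in WT hearts (0.11, SE 0.31), so that its values overlapped where those of 2810454H06Rik did not. A RefSeq window was matched for 78 of the 158 members. Windows of the unpaired members had a median G and C content of 62.0% with 19 CpG (14 windows), those of tail-to-tail members 60.7% with 17 CpG (21 windows), those of head-to-head members 54.3% with 10 CpG (23 windows), and those of members inside their partner 54.2% with 5 CpG (18 windows), against 52.7% with 7 CpG over 27025 genes.

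The coding partners were read in the same fit. Of 132 distinct partners 108 passed the filter on the mean, and 1 was called, *Trdn* (background 0.0291%). *Trdn* was not called without a mean-variance trend (1 gene was in all), and 3 partners were called when KO replicate 1 was left out (32 genes in all). At an unadjusted p under 0.05 there were 12 (11.1%), against 5.74% of all genes tested, with 7 higher and 5 lower in KO hearts. Values did not overlap for 11 partners (10.2%), close to the background of 9.07%. Apart from *Trdn* the lowest adjusted p was 0.772 (limma) and the log2 fold changes ran from -0.65 to 0.67, the latter in *Necab1*. *Necab1*, which codes for a calcium-binding protein, was read 25, 25 and 35 times in KO and 15, 21 and 16 times in WT hearts, and its antisense RNA Gm11837 9, 6 and 14 times in KO and 15, 9 and 16 times in WT hearts. *Ttn* and *Des* were among the 5 that were lower, and without WT replicate 1 their log2 fold changes were -0.09 and -0.06 instead of -0.17 and -0.14. The median over the partners was 0.01.

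Both sides of a pair were compared in 108 tested pairs other than *Trdn-as*. The signs were opposite in 56 and the same in 52. In 2 pairs both genes had an unadjusted p under 0.05, among them Gm13938 with *Ttn* (-0.86 and -0.17), and in both pairs the antisense RNA and the partner were lower in KO hearts. *Trdn-as* with *Trdn* was the only tested pair in which the antisense RNA and its partner each passed the adjusted threshold, and its 2 genes moved in opposite directions.

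**Figure D5:**
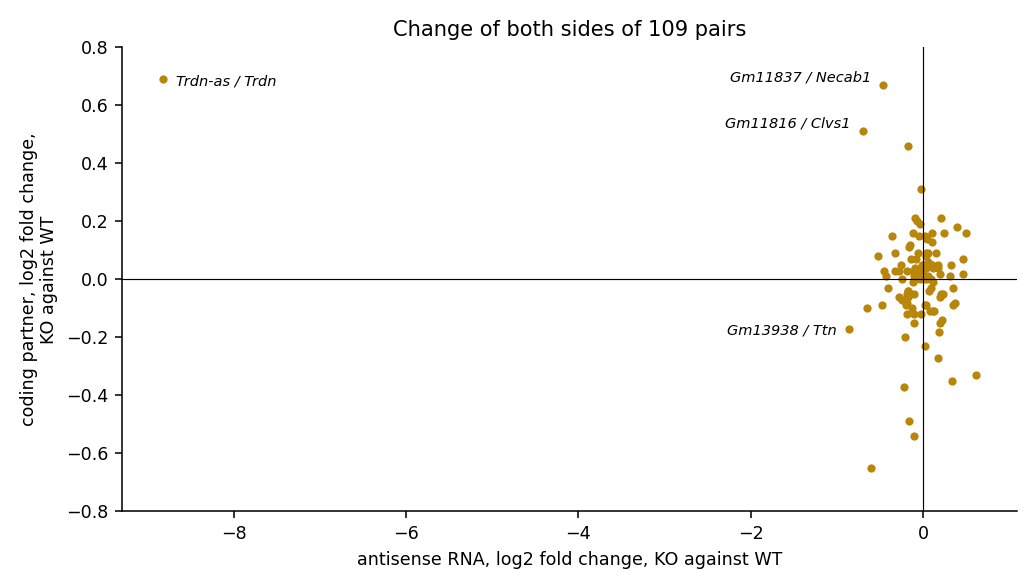
Log2 fold change in KO against WT hearts of the coding partner (vertical) against that of its antisense RNA (horizontal) for 109 pairs with both genes tested. *Trdn-as* with *Trdn* lies at -8.82 and 0.69, and the other pairs form a cloud around 0 with 56 in opposite and 52 in like directions.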

How the data were processed

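Total RNA of 6 mouse hearts, 3 of them *Trdn-as* KO and 3 WT, was sequenced as 1 strand-specific library each (single-end reads). Per the labels and the study's methods, the authors trimmed the reads (Trimmomatic 0.39), aligned them to GRCm38 (STAR 2.6.1d), removed duplicates (Picard 2.21.1), multi-mapping, ribosomal and mitochondrial reads, and counted exonic reads by strand (featureCounts 1.6.5), leaving out reads of several genes. The authors divided each count by the DESeq2 (1.18.1) size factor of its library and rounded it, and this score per gene and library was deposited by the authors. Because raw counts were not used here, no count model was run. A score carries no gene length, and strand errors of deep genes can reach their antisense rows.

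From these values, genes with a mean of at least 10 (13753 of 21776) were compared as log2(value + 1) with limma 3.58.1 in R 4.3.3 (mean-variance trend, two-sided, Benjamini-Hochberg, threshold 0.05, 4 residual and 15.4 prior degrees of freedom, no covariate). The fit was tested on simulated data. Size factors were estimated from the pattern of skipped whole numbers, which gives read totals of 2.59 to 3.62 M and the floor of 3 reads. That floor covers counting error only. Pairs used the table's coordinates, and exons and exonic lengths came from GENCODE M21, which matched all 158 members and differs from the table at the ends of some genes (*Kcnq1ot1* has 93092 exonic bases there and an interval of 84395 in the table). Promoter and miRNA sequences came from RefSeq. The members and gene lists were chosen with earlier results of these data known. Named were *Trdn-as*, *Trdn*, called genes, the 10 most abundant members, up to 5 members with the largest difference each way (unadjusted p under 0.05, no overlap) with their partners, members opposite listed cardiac genes or on the list of studied RNAs, the 5 highest ratios with a mean of at least 50, and those at the edge of the limit. Other names were chosen after their values were seen. Alternatives were other pseudocounts, filters, scalings, limma-voom, no trend, a replicate block, other thresholds and each library left out. Results on 2 pairs are not reported here.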

Additional observations from a re-analysis of the deposited data

How the results depend on the processing

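*Trdn-as* and *Trdn* kept their direction under every alternative run that could test them. *Trdn* missed the threshold once, when limma ran with no mean-variance trend (0.69, adjusted p 0.145). The number of antisense RNAs past an adjusted p of 0.05 was 1 in all runs except 0 when at least 10 was required in every sample, which removes *Trdn-as* itself and leaves 124 members tested, with 2 genes called overall. At an unadjusted p under 0.05 there were 19 of 158 antisense RNAs without the mean-variance trend, against 5.67% of all genes. With a library left out there were 6 to 16, the lowest without KO replicate 2 (3.80% against 4.64% of all genes) and the highest without KO replicate 1 (10.1% against 8.26%). The replicate numbers did not pair the samples (correlations of deviations 0.0476, -0.068 and -0.0278), and with a replicate block the counts were 1 antisense RNA called and 10 at an unadjusted p under 0.05, with a median of -0.03 for the members. Leaving out a library moved that median between -0.05 and 0.01. Partner genes called numbered 0 without the mean-variance trend and 1 to 3 with a library left out, 3 without KO replicate 1, where 32 genes were called in all. Their median was 0.04 with limma-voom, under which the median of all genes was 0.03. The number of antisense RNAs was 266 at a mean of at least 5 and 91 at 20. The rank of *Trdn-as* by ratio was 12 of 29 pairs among members with a mean of at least 50, 50 by reads without exonic length, and 37 to 40 with a WT library left out. Among the named genes, *Kcnq1* turned to 0.02 with total scaling and with limma-voom. With a library left out the log2 fold change ran from -0.13 to 0.04 for *Kcnq1ot1*, -0.16 to 0.01 for *Airn*, -0.31 to 0.04 for AC130217.2, -0.40 to 0.10 for *Zeb2os*, -0.07 to 0.07 for *Kcnq1*, -0.26 to 0.11 for *Med26* and -0.23 to 0.11 for *Rfx1*, and the cause was not tested. Shallow counts limit the members under a mean of 20 most, and WT replicate 1 had the fewest reads (2.59 M).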
